A study of Mus musculus with 6 samples.

Results

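The 8 genes described here, Pdgfra, Pdgfa, Tcf21, Ddr2, Thy1, Vim, Meox1 and Gsn, form a list of fibroblast identity genes of the mouse heart. Pdgfa, a ligand made largely outside the fibroblast, is listed beside its receptor gene Pdgfra. The 8 genes were taken by name from 25006 genes counted in RNA sequencing libraries of heart ventricle, and all 8 were counted and tested. The series compared 3 control libraries with 3 libraries from embryos labelled as Prox1 conditional nulls, all at embryonic day 17.5 and on an NMRI background. Its stated aim was to find pathways in the developing heart that depend on cardiac lymphatic vessels, whose identity is set by the transcription factor Prox1. Control libraries carry the genotype label WT, and the others VecadcreERT2; Prox1f/f, which is a tamoxifen-inducible Cre driven by the VE-cadherin promoter together with floxed Prox1. The breeding text, given for all 6 libraries alike, names Prox1 f/f females and Cre-carrying Prox1f/f males, so whether the controls also carried floxed alleles is not settled by the labels. Pregnant females were given tamoxifen (5 mg for each 40 g of weight) at E13.5 and E14.5, per the protocol listed for both groups. VE-cadherin is an endothelial gene, so this Cre is driven in endothelium. Whether any fibroblasts, such as those descended from endothelium, carried the deletion was not tested.

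Most cardiac fibroblasts descend from the epicardium, whose cells enter the ventricular wall and take up a mesenchymal fate, and a smaller part descends from endothelium. The receptor encoded by Pdgfra receives platelet-derived growth factor ligands, among them the product of Pdgfa, and the transcription factor Tcf21 is required for epicardial cells to become fibroblasts. Fibroblasts then lay down and sense the collagen matrix of the growing ventricle, the latter in part through the collagen receptor Ddr2. Several of these genes are not limited to fibroblasts: endothelial and mural cells also contain vimentin, and neurons and thymocytes also express Thy1.

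The libraries held 35195544 to 44330594 counts, and 3 counts equalled 0.0677 to 0.0852 CPM, the unit of level below, which is the count scaled to library size. Prox1 itself was higher, not lower, in null-labelled ventricles (log2 fold change 0.15 ± 0.03, SE, adjusted p = 0.0331); cardiomyocytes express it too, and its count is not limited to the floxed exons. Esr1, part of which is carried by inducible Cre fusions, had 9 to 19 counts in controls and 244 to 298 in null-labelled libraries. Directions below follow the labels, by which the Esr1 counts also split, while loss of Prox1 was not shown by its counts. Cre and Prox1 loss cannot be told apart, since Cre is named for null-labelled libraries only. Null 1 and null 3 held 9218 and 9952 Y-linked counts together with 1798 and 5738 counts of Xist, while the male controls had 28 and 29 of Xist, so these libraries may hold more than 1 embryo and values without them are given below. Control 3 and null 2 were female by these genes, with 49485 and 50586 counts of Xist. The labels do not say that each library came from a separate embryo. By the sex genes each group held more than 1 embryo, but whether libraries of like sex shared an embryo is not known. The tests thus measure only how these libraries vary, which may be technical in part.

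Of the 8 fibroblast identity genes, Pdgfra and Tcf21 rose in null-labelled ventricles, 0 fell, and 6 did not pass the test. Pdgfra was 1.25-fold and Tcf21 1.17-fold higher, and in both genes each null-labelled library lay above each control. Vim, Meox1 and Thy1 had values below 0 on the log2 scale that did not pass, and Ddr2, Gsn and Pdgfa differed by at most 0.07. A gene is called here at an adjusted p under 0.05 in the quasi-likelihood test of edgeR over all 14815 genes tested; 5.41% of all genes were called, 2.43% higher and 2.98% lower. At an unadjusted p under 0.05 stood 3 of the 8 genes and 20.5% of all genes. DESeq2 and limma-voom each called the same count, 2 higher and 0 lower, where they called 3.65% and 2.08% of all genes higher and 3.75% and 2.42% lower. Complete separation of the groups was seen in 3 of the 8 genes, against 26.6% of all genes tested. The median log2 fold change over the 8 genes was 0.03, and over all genes tested it was −0.0040. In RNA from whole ventricle a change in the number of fibroblasts and a change in RNA per fibroblast cannot be told apart.

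**Figure D1:**
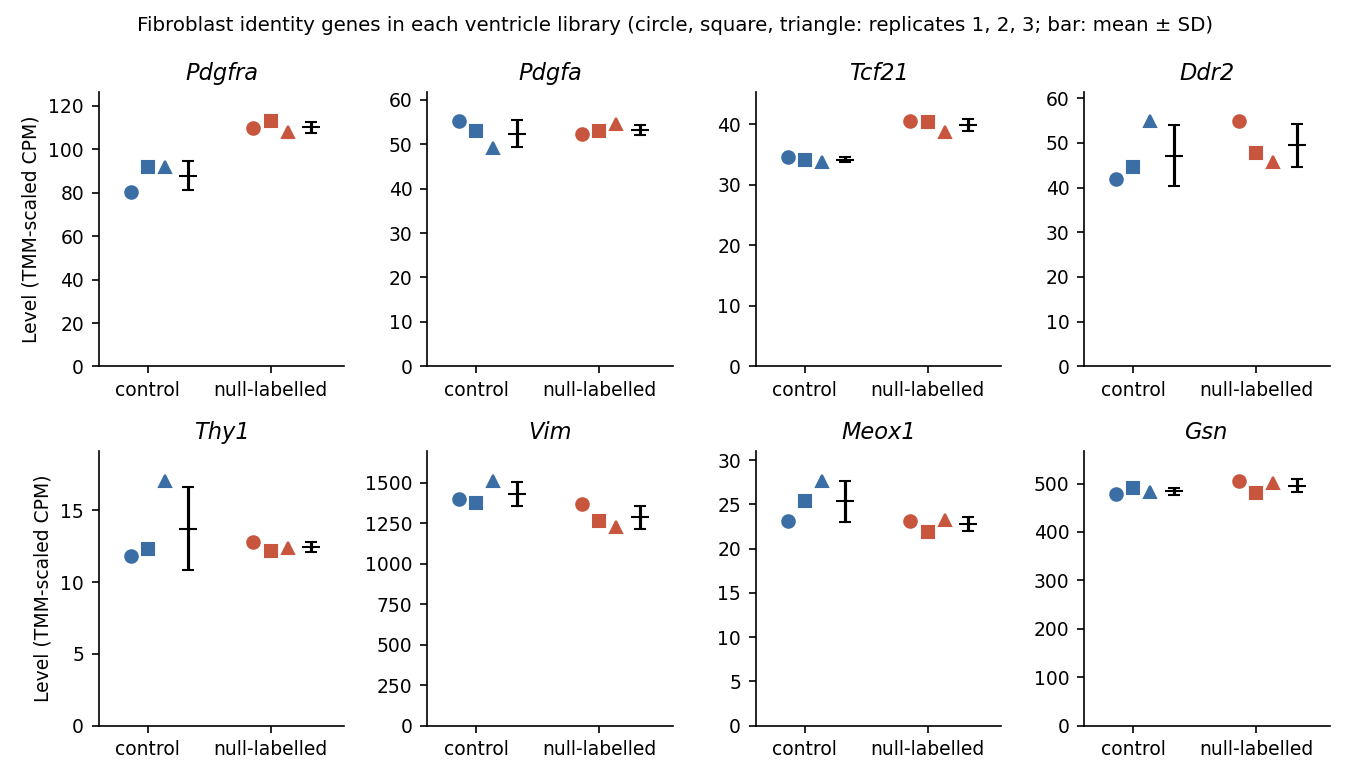
Level of each fibroblast identity gene in every library, in CPM scaled by the trimmed mean of M values (vertical axes start at 0 and differ between panels), with the group mean and SD (n = 3) as a bar beside the points. The groups separate for Pdgfra, Tcf21 and Vim, and control replicate 3 stands highest for Ddr2, Thy1, Vim and Meox1.

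Stretches upstream of the start of Pdgfra and Tcf21 are printed because these are the genes that rose. Both come from the promoter table of RefSeq on GRCm38.p6, in which 6 of the 8 genes were matched (Pdgfra, Pdgfa, Tcf21, Ddr2, Vim and Gsn). They run 5′ to 3′ on the strand of the gene, stop before the first annotated exon, and carry in capitals any E-box, the element that Tcf21 and other basic helix-loop-helix factors bind.
Pdgfra, chr5:75152001-75152250, plus strand: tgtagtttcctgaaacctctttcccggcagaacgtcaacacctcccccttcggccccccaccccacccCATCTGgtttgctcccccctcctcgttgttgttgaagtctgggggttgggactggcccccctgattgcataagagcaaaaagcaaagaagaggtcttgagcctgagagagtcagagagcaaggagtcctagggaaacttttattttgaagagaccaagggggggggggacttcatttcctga
Tcf21, chr10:22820175-22820393, minus strand: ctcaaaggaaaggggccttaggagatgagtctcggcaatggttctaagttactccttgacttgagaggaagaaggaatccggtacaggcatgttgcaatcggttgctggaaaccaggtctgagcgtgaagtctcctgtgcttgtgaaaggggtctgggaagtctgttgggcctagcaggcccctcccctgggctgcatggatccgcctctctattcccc
The search was for CANNTG on both strands. The Pdgfra stretch of 250 bases held 1 match, opening 182 bases before the RefSeq start, and 66.2% of all promoter stretches of that length hold at least 1. The Tcf21 stretch of 219 bases held 0 matches, where 62% of stretches of that length hold 1 or more. Neither stretch held a CCAAT box (CCAAT), a GC box (GGGCGG) or a TATA box (TATAAA) on either strand. At 250 bases these occur in 33.8%, 32.7% and 12.4% of stretches, and at 219 bases in 30.9%, 28.3% and 9.92%. A match describes letters, not a bound site.

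Pdgfra (ENSMUSG00000029231, chromosome 5, 75152292 to 75198215, GRCm38) encodes the receptor tyrosine kinase PDGF receptor alpha, which marks cardiac fibroblasts and their mesenchymal precursors. Its levels were 80.3, 91.6 and 91.7 CPM in controls 1 to 3 and 109.9, 113 and 108 CPM in null-labelled libraries 1 to 3. Control 1 was the lowest library, the other controls lay close together, and the null-labelled libraries spanned less than the controls. The control mean was 87.9 ± 6.55 CPM and the null-labelled mean 110.2 ± 2.53 CPM (SD, n = 3). The difference was 0.33 ± 0.05 on the log2 scale (SE; 95% interval 0.21 to 0.45; adjusted p = 0.0109). The call was lost without null 2 (0.31, adjusted p = 0.0524), and without null 1 and null 3 together, where the log2 fold change was 0.36 with adjusted p = 0.208. The gene's exons overlap the microRNA gene Mir7025, which had at most 1 count in any library.

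Its relative Pdgfrb, the receptor of pericytes and smooth muscle cells, stood at 137.7, 141.7 and 157.7 CPM in controls and 158.5, 143.9 and 143.05 CPM in null-labelled libraries. These groups overlapped (log2 fold change 0.03, adjusted p = 0.845; below 0 when control 1, null 1, or both null 1 and null 3 were left out). Per kilobase of exon, on a scale with the same sum in every library, Pdgfra was the less abundant receptor in every library. The ratio of Pdgfra to Pdgfrb on that scale ran 0.319, 0.353 and 0.318 over the controls, against 0.379, 0.429 and 0.412 over the null-labelled libraries. All null-labelled ratios exceeded all control ratios, with an exact two-sided permutation p = 0.1, the smallest that 3 libraries against 3 can give, and an adjusted p of 0.167 over 5 pairs of relatives, which were chosen after their values were seen.

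Pdgfa (ENSMUSG00000025856, chromosome 5, 138976014 to 138997370) encodes the ligand that binds only the alpha receptor, and in the heart it is made largely by muscle and other cells outside the fibroblast. It had 55.1, 52.9 and 49.0 CPM in controls and 52.2, 52.9 and 54.4 CPM in null-labelled libraries. The null-labelled libraries fell within the range of the controls. The log2 fold change was 0.02 ± 0.05 (95% interval −0.09 to 0.14, adjusted p = 0.861), so the interval leaves room for a change of either sign smaller than that of Pdgfra. The receptor rose, then, and this ligand was not shown to change.

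Pdgfb, the ligand that endothelium supplies to pericytes, fell from 54.5, 50.7 and 57.3 CPM to 45.0, 40.03 and 44.01 CPM (log2 fold change −0.33 ± 0.06, adjusted p = 0.0165). The groups did not overlap, and leaving out null 2, null 3, or null 1 with null 3 ended the call. Per kilobase of exon the ratio of Pdgfa to Pdgfb ran 1.35, 1.39 and 1.14 over the controls, against 1.55, 1.76 and 1.65 over the null-labelled libraries (exact permutation p = 0.1, adjusted p = 0.167). The remaining ligands were scarce, Pdgfc at 3.45 and Pdgfd at 12.7 on the per-kilobase scale in controls against 68.6 for Pdgfa, and neither passed the test (log2 fold changes −0.15 and −0.10, both above 0 without control 3).

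Of 16 listed genes of PDGF ligands, receptors and signalling, 1 rose, 2 fell and 13 did not pass, with a median log2 fold change of −0.01. Pik3r1, the regulatory subunit of PI3-kinase that docks on PDGF receptors, rose by 0.22 ± 0.04 (adjusted p = 0.0223). Plcg1, a phospholipase that docks on the same receptors, fell by 0.13 ± 0.03 (adjusted p = 0.0472). Control 3 was the single library that could be left out with Pik3r1 still called, while Plcg1 was called in only 2 of 16 alternatives and lost its call under both other scalings, DESeq2 and limma-voom. Both proteins also serve many other receptors. DESeq2 and limma-voom each called 1 gene of the list higher and 1 lower.

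Tcf21 (ENSMUSG00000045680, chromosome 10, 22817281 to 22820174) encodes a basic helix-loop-helix transcription factor needed for fibroblast formation from the epicardium. It had 34.7, 34.1 and 33.8 CPM in controls and 40.5, 40.4 and 38.7 CPM in null-labelled libraries. The libraries of each group lay close together, and the groups did not overlap. The means were 34.2 ± 0.412 and 39.9 ± 1.02 CPM, so Tcf21 rose by 0.22 ± 0.04 on the log2 scale (95% interval 0.12 to 0.32, adjusted p = 0.0207). The coefficient of variation of Tcf21 was 1.2% in controls and 2.56% in null-labelled libraries, against medians of 4.39% and 3.54% over the 9802 tested genes that averaged 10 CPM or more. Leaving out control 2 (adjusted p = 0.0675), null 1 (0.0755), null 2 (0.0901), null 3 (0.0531), or null 1 and null 3 together (0.292) ended the call, with log2 fold changes of 0.21 to 0.24 in these fits.

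Among 12 genes listed as partners of Tcf21 or as factors upstream of it, 0 rose, 1 fell and 11 did not pass. In this list 1 gene was higher at an unadjusted p under 0.05, and DESeq2 and limma-voom called 0 higher. The E proteins are the dimer partners of Tcf21. Of their genes Tcf4 fell by 0.18 on the log2 scale (202 ± 4.95 against 178 ± 5.21 CPM, adjusted p = 0.0246), Tcf3 had −0.13 (adjusted p = 0.107) and Tcf12 −0.0094. Tcf4 lost its call without control 1 or any null-labelled library. The epicardial factors Wt1 and Tbx18 had log2 fold changes of −0.08 and 0.0026 and overlapping groups. Tcf15, a related factor of capillary endothelium, fell from 6.22 ± 0.62 to 3.9 ± 0.352 CPM (log2 fold change −0.68 ± 0.12, adjusted p = 0.0173) and lost its call without control 2, null 1 or null 3.

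Meox1 (ENSMUSG00000001493, chromosome 11, 101877510 to 101894374) encodes a homeobox factor that fibroblasts of stressed adult hearts switch on. It had 23.1, 25.4 and 27.7 CPM in controls and 23.1, 21.9 and 23.3 CPM in null-labelled libraries. Control 2 and control 3 stood above all others, control 1 lay among the null-labelled libraries, and the groups overlapped. The log2 fold change was −0.16 ± 0.07 (95% interval −0.32 to 0.0049, adjusted p = 0.259). Meox2, its paralog, which endothelium and mesenchyme express, had 28.2, 22.3 and 24.1 CPM in controls and 19.5, 13.98 and 18.4 CPM in null-labelled libraries. Its groups did not overlap, and its log2 fold change of −0.52 ± 0.14 did not pass (adjusted p = 0.0845), though it did in 3 of 16 alternatives. The Meox1 to Meox2 ratio per kilobase was 1.10 ± 0.199 over controls against 1.42 ± 0.214 over the null-labelled libraries, with no overlap (exact permutation test, p = 0.1, adjusted p = 0.167).

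Ddr2 (ENSMUSG00000026674, chromosome 1, 169972307 to 170110762) encodes a receptor tyrosine kinase activated by fibrillar collagen. Its levels were 41.9, 44.5 and 54.8 CPM in controls and 54.8, 47.8 and 45.6 CPM in null-labelled libraries. Control 3 and null 1 were equally high and the groups overlapped over most of their range. The log2 fold change was 0.07 ± 0.11 (95% interval −0.20 to 0.34, adjusted p = 0.792), and it was 0.19 without control 3. The interval includes a rise as large as that of Pdgfra, which this spread could not show. The exons of Ddr2 overlap the antisense gene 3110045C21Rik, which had 2 to 8 counts per library. The strand setting of the counting was not given, so how many Ddr2 reads the overlap affected is not known.

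The other discoidin receptor gene, Ddr1, which epithelia and many other cells express, was more abundant per kilobase than Ddr2 in every library and did not pass the test (log2 fold change 0.15, adjusted p = 0.585). Its level of 259 CPM in null 2 stood above the 184 to 199 CPM of the other libraries, and without null 2 its log2 fold change was −0.0086. Without null 1 and null 3, which leaves null 2 alone, it was called higher (0.42, adjusted p = 0.0402). The Ddr2 to Ddr1 ratio per kilobase was 0.126 ± 0.0188 over controls against 0.122 ± 0.0291 over the null-labelled libraries (exact permutation test, p = 0.9). Beside Ddr2, 11 genes were listed, some of them collagen receptors and others proteases, transcription factors or an adaptor. Of these 0 rose, 2 fell and 9 did not pass. In edgeR 2 were higher at an unadjusted p under 0.05, Mmp2 and Mrc2, and DESeq2 called 2 higher and limma-voom 0. The genes that fell encode integrin subunits, Itga2 with a log2 fold change of −0.86 ± 0.09 (32.1 ± 3.36 against 17.6 ± 1.65 CPM, adjusted p = 0.00226) and Itga1 with −0.36 ± 0.06 (adjusted p = 0.0137). Itga2 kept its call in all 16 alternatives, and Itga1 in 14, all but those without null 2 and without null 1 and null 3. These subunits pair with Itgb1 to bind collagen on many cells, endothelium among them, and Itgb1 stood at −0.05 (adjusted p = 0.588).

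Thy1 (ENSMUSG00000032011, chromosome 9, 44043384 to 44048579) encodes a small glycoprotein on the surface of fibroblasts, neurons and thymocytes, and was the scarcest of the 8 genes. It had 11.8, 12.3 and 17.1 CPM in controls and 12.8, 12.2 and 12.4 CPM in null-labelled libraries. Control 3 stood alone, and the other libraries lay close together. The log2 fold change was −0.14 ± 0.13 (95% interval −0.44 to 0.17, adjusted p = 0.626), and without control 3 it was 0.047. The 10 markers of T cells and thymus summed to 1.5 to 1.95 CPM in controls, highest in control 3, and to 1.31 to 1.67 CPM in null-labelled libraries. The 10 neuron and Schwann markers summed to 41.4 to 49.3 CPM in controls, again highest in control 3, and to 35.8 to 45.3 CPM in null-labelled libraries; the part of these cells in the Thy1 level was not tested. In neither list did a gene pass in edgeR, DESeq2 or limma-voom (2 neuron and Schwann genes and 0 T cell and thymus genes had an unadjusted p under 0.05 in edgeR), and no marker of either list was at 0 in all libraries.

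Vim (ENSMUSG00000026728, chromosome 2, 13573927 to 13582826) encodes vimentin, the intermediate filament of mesenchymal, endothelial and mural cells. It had 1400.5, 1374 and 1513 CPM in controls and 1367, 1263 and 1229 CPM in null-labelled libraries. Every null-labelled library lay below every control, null 1 only just below control 2. The log2 fold change was −0.15 ± 0.05, with a 95% interval for this gene alone of −0.27 to −0.03, and it did not pass over all genes (unadjusted p = 0.0186, adjusted p = 0.143). DESeq2 gave an adjusted p of 0.0702 and limma-voom 0.148. The 12 endothelial markers, cells that also contain vimentin, summed to 2049 to 2313 CPM in controls and 1721 to 1878 CPM in null-labelled libraries. Of these markers 6 fell, 0 rose and 6 did not pass, the smallest p being those of Egfl7 (log2 fold change −0.37) and Fabp4 (−0.75). The count was 2 without null 2 or null 3 and 1 without null 1 and null 3. All 12 had log2 fold changes below 0, with a median of −0.22. Groups did not overlap in 9, all lower, against 13.9% of all genes. At an unadjusted p under 0.05 in edgeR stood 10, against 20.5% of all genes. DESeq2 called 8 lower and limma-voom 5. No endothelial marker was at 0 in all libraries, and the part of endothelium in the Vim level was not tested.

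The muscle filament gene Des had 930, 918 and 671 CPM in controls and 790, 795 and 808 CPM in null-labelled libraries, so control 3 stood low, and its log2 fold change was −0.07 (adjusted p = 0.801). It was 0.0066 without control 1, and without control 3 Des was called lower (−0.21, adjusted p = 0.0120). Per kilobase the ratio of Vim to Des was 1.19, 1.18 and 1.78 over controls 1 to 3 and 1.2 to 1.37 over the null-labelled libraries (exact permutation test, p = 1). Synm, which encodes synemin, a filament protein that assembles with desmin and vimentin, fell by 0.35 ± 0.08 on the log2 scale (adjusted p = 0.0425) and kept its call in 7 of 16 alternatives. Of the single libraries, only control 1 could be left out with the call kept. Nes, the nestin gene, had −0.13 and did not pass (adjusted p = 0.573).

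Gsn (ENSMUSG00000026879, chromosome 2, 35256380 to 35307892) encodes gelsolin, which severs and caps actin filaments and is abundant in cardiac fibroblasts. It had 478, 491 and 483 CPM in controls and 506, 481 and 500.3 CPM in null-labelled libraries. Null 2 fell among the controls and the groups overlapped. The log2 fold change was 0.03 ± 0.04 (95% interval −0.05 to 0.12, adjusted p = 0.679), the narrowest interval of the 8 genes, and its upper end is below the lower end of the interval of Pdgfra; the difference between the genes was not tested. Of its relatives, Svil and Flii had log2 fold changes of −0.04 each, Capg, which macrophages express, 0.30 (adjusted p = 0.244), Scin −0.13 and Avil −0.37, and none passed with all libraries. Capg was called higher when control 3 was left out.

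**Figure D2:**
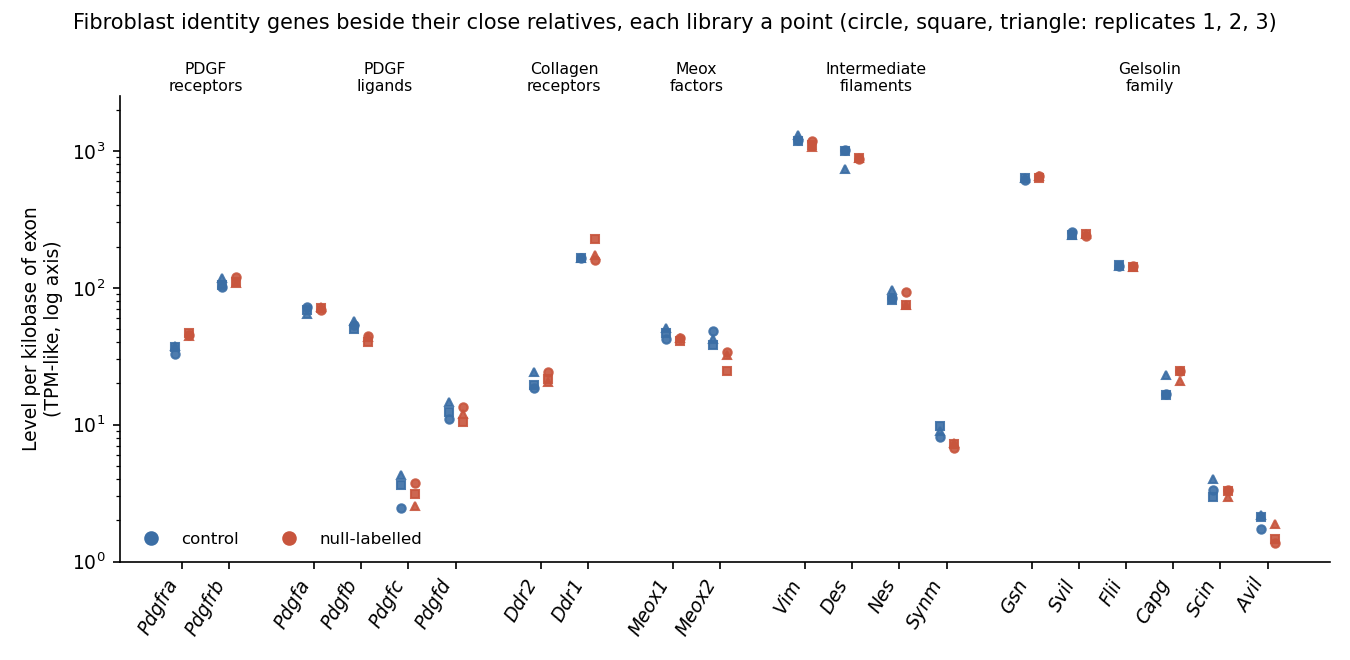
Levels per kilobase of exon (TPM-like, log axis) of the fibroblast identity genes and their relatives, each point a library. Pdgfra lies below Pdgfrb and Ddr2 below Ddr1 in every library, while Pdgfa exceeds the other PDGF ligands.

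Ordered by level per kilobase in controls, the genes ran Vim (1231), Gsn (626), Pdgfa (68.6), Tcf21 (59.5), Meox1 (46.5), Pdgfra (35.8), Ddr2 (20.8) and Thy1 (18.7). Neighbours in this order did not overlap between libraries except Ddr2 and Thy1. In null-labelled libraries Pdgfra (45.6) stood above Meox1 (42.3), with no overlap between them, and Tcf21 (70.3) reached the level of Pdgfa (70.7), with overlapping libraries. Pdgfra and Meox1 thus changed places in the order. Exon lengths are of all annotated exons joined, so genes with many unused exons are understated on this scale.

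Beside the 8 genes, 28 other fibroblast genes were examined as a list, covering matrix proteins, transcription factors and surface proteins. Of these 4 rose, Dpep1, Col1a1, Gas1 and Col6a1, 0 fell and 24 did not pass. The median log2 fold change was 0.20, 23 of the 28 lay above 0, and 11 had groups that did not overlap, 10 of them higher. At an unadjusted p under 0.05, 11 were higher and 0 lower. DESeq2 called 9 higher and 0 lower, and limma-voom 2 and 0. Of all 14815 genes tested, 7226 lay above 0 and 2.43% were called higher in edgeR. Groups did not overlap in 12.7% of all genes with null-labelled libraries higher, and in 13.9% with them lower. An unadjusted p under 0.05 in either direction was found for 20.5%. Whether these 28 genes differed from all genes as a set was not tested. Dpep1, a dipeptidase anchored in the membrane, had 16.3, 18.1 and 17.9 CPM in controls and 28.03, 25.2 and 31.3 CPM in null-labelled libraries, a log2 fold change of 0.69 ± 0.08 (adjusted p = 0.00306). Gas1, a surface protein that binds hedgehog ligands, rose by 0.27 ± 0.06 (38.1 ± 1.5 against 45.9 ± 3.65 CPM, adjusted p = 0.0382).

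The collagen genes Col1a1 and Col6a1 rose by 0.29 ± 0.06 and 0.25 ± 0.06 on the log2 scale (adjusted p of 0.0274 and 0.0414). Col3a1 and Col1a2 had values of 0.33 and 0.29 that did not pass (adjusted p of 0.0815 and 0.101), and their groups did not overlap. Dpep1 stayed called whichever single library was left out, while Gas1, Col1a1 and Col6a1 lost theirs without any library but control 3. The count of called genes was 8 without control 3, 2 without null 2, 1 without any other library, and 0 without null 1 and null 3, where the list median was 0.11. S100a4, once used as a fibroblast marker and also made by leukocytes, had a log2 fold change of −0.62, the lowest of the list, and did not pass (adjusted p = 0.29).

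**Figure D3:**
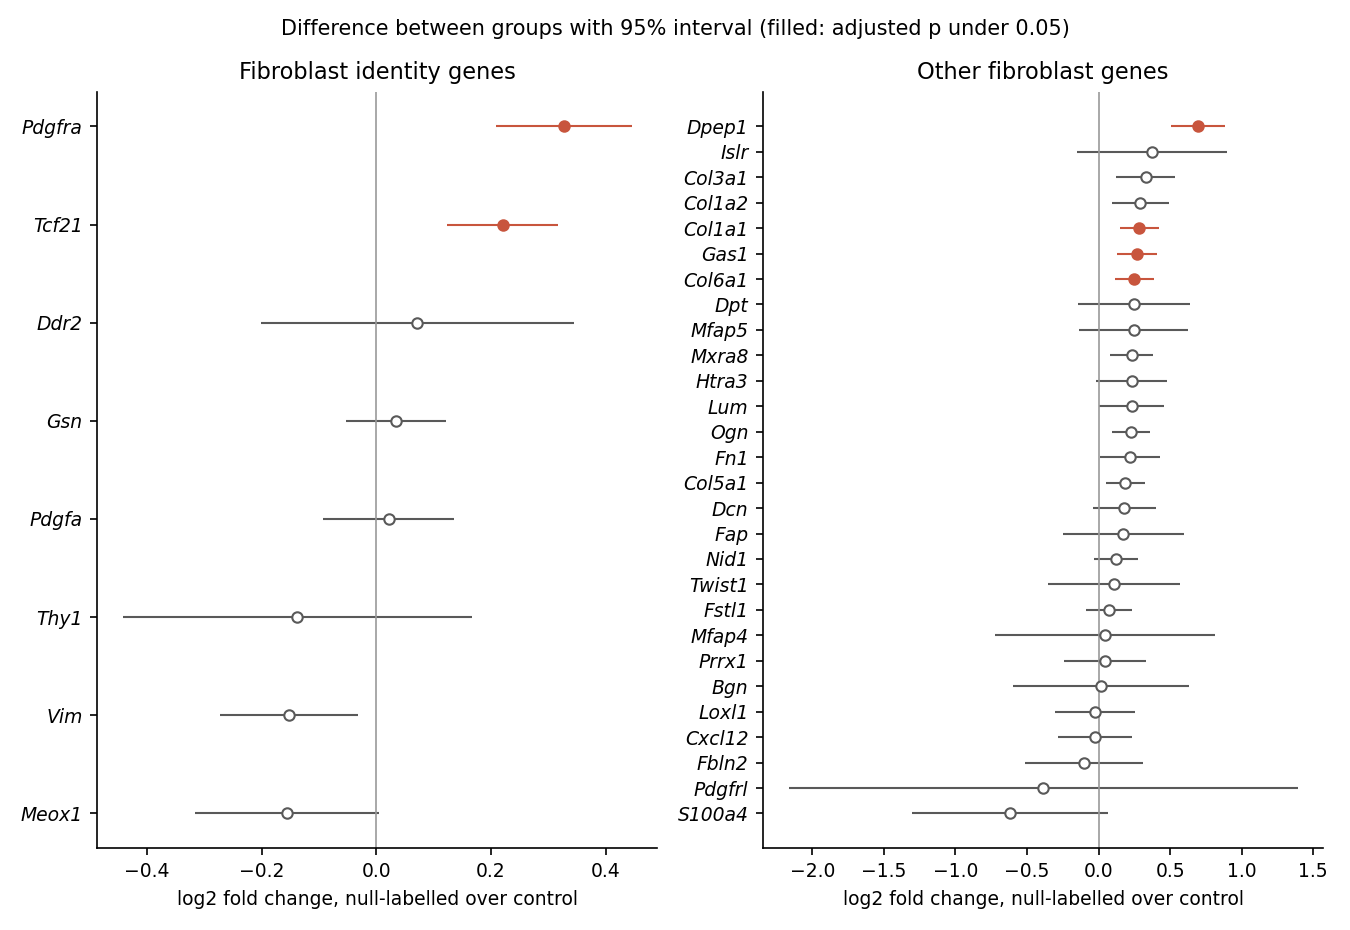
Log2 fold change of null-labelled over control ventricles with its 95% interval for the 8 fibroblast identity genes and for 28 other fibroblast genes; filled points have an adjusted p under 0.05. Pdgfra and Tcf21 stand above 0 among the first, and Dpep1, Col1a1, Gas1 and Col6a1 among the second, most of which lie above 0.

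Genes of activated fibroblasts and myofibroblasts were examined next. Of 16 such genes 0 rose and 0 fell in edgeR, with a median of −0.01. At an unadjusted p under 0.05, 2 were higher and 1 lower, and DESeq2 called 1 higher and 1 lower and limma-voom 0 and 1. Postn, which encodes the matrix protein periostin, stood at 0.16 on the log2 scale (adjusted p = 0.326), and Acta2, the smooth muscle actin of myofibroblasts, −0.17 (adjusted p = 0.704), with overlapping groups in both. Ccn2, a matricellular gene, had −0.69, its groups did not overlap, and it did not pass (adjusted p = 0.0599). It was called lower by DESeq2 and limma-voom, and by edgeR when null 1, null 2, or both null 1 and null 3 were left out. Fn1, the fibronectin gene, was among those higher at an unadjusted p under 0.05 (0.22, adjusted p = 0.231 in edgeR, overlapping groups). Log2 fold changes in this list ran from −0.69 to 0.99, with 8 genes above 0 and 8 below. The genes named here were chosen after their values were seen.

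Markers of other cell types moved between the groups beside the fibroblast genes, and the part of these in the values of Pdgfra and Tcf21 was not tested. Of 9 pericyte and smooth muscle markers 0 rose and 2 fell, Cspg4 (log2 fold change −0.21) and Smtn (−0.15), with 0 to 2 called when a library was left out. Smtn was called in 4 of 16 alternatives and lost under both other scalings and limma-voom. The summed level of the 9 markers was 1386 to 1521 CPM in controls and 1365 to 1426 CPM in null-labelled libraries. In this list 3 genes lay above 0 and 6 below. Groups did not overlap in 2 higher genes, Abcc9 (0.16, adjusted p = 0.161) and Kcnj8 (0.12, adjusted p = 0.268), and in 4 lower genes. Of 9 epicardial markers 0 rose and 2 fell, Krt19 (−0.59) and Upk1b (−0.67), with 0 to 2 called when a library was left out and sums of 237 to 280 and 221 to 241 CPM. Of 10 macrophage markers 5 rose and 0 fell, of which C1qc (0.53) and C1qa (0.72) had the smallest p, with sums of 79.0 to 89.6 and 101 to 125 CPM, and the number was 0 without control 2, null 1, null 2, or null 1 and null 3. All valve and endocardial markers, 6 in number, missed the threshold in edgeR, DESeq2 and limma-voom (1 at an unadjusted p under 0.05 in edgeR), with sums of 233 to 276 and 249 to 281 CPM. Of 10 cardiomyocyte markers 0 rose and 1 fell, Actc1 (−0.18), which kept its call only when control 3 was the library left out. The sums were 65748 to 70972 and 67944 to 69729 CPM. In this list 8 genes lay above 0 and 2 below, with a median log2 fold change of 0.07. At an unadjusted p under 0.05 in edgeR, 3 were higher and 1 lower. DESeq2 called 2 higher and 1 lower, and limma-voom 0 in either direction. None of the markers in these lists was at 0 in all libraries.

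Of 6 lymphatic endothelial markers 0 rose and 3 fell, Mmrn1 (−2.38, adjusted p = 0.0211), Reln (−0.72) and Sox18 (−0.50), with sums of 152 to 174 and 129 to 132 CPM, and 1 was called without null 1 and null 3. Leaving out control 2, null 2 or null 3 ended the call of Mmrn1. All 6 markers lay below 0, and 3 did not pass. Among these 3 were Flt4 (−0.05, adjusted p = 0.705) and Lyve1 (−0.11, adjusted p = 0.748), both with overlapping groups.

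The pattern over libraries was compared for Pdgfra, Tcf21 and Vim with 12696 genes of at least 1 CPM, by the root mean square difference of log2 levels, each centred on its mean over the 6 libraries. The genes nearest to Pdgfra were Itpr2, Zbtb20 and Cep128, at 0.0227 to 0.0285. Those nearest to Tcf21 were Adamtsl4, Vps13b and Pnpla7, at 0.0175 to 0.022. Vim was nearest to Rcan3, Fzd6 and Myh9, at 0.0189 to 0.0256. Pdgfra and Tcf21 were 0.092 apart from each other and Pdgfra and Vim 0.252, so the 8 genes did not follow a common pattern over the libraries. With 6 libraries and many genes, near matches are found for any gene, and the distance describes likeness only.

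The share of all genes called higher moved with the setting, and the calls of Pdgfra and Tcf21 are to be read against it. It was 2.48% and 2.66% under relative log expression and upper quartile scaling, 2.12% and 2.70% under the other filters, 1.81% with a replicate block, 2.13% with a sex term, 2.45% without haemoglobin genes and 4.58% at a threshold of 0.1. Without controls 1, 2 and 3 in turn it was 1.84%, 1.06% and 2.98%, without null 1, 2 and 3 in turn 1.05%, 0.879% and 0.852%, and without null 1 and null 3 together 0.138%.

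**Figure D4:**
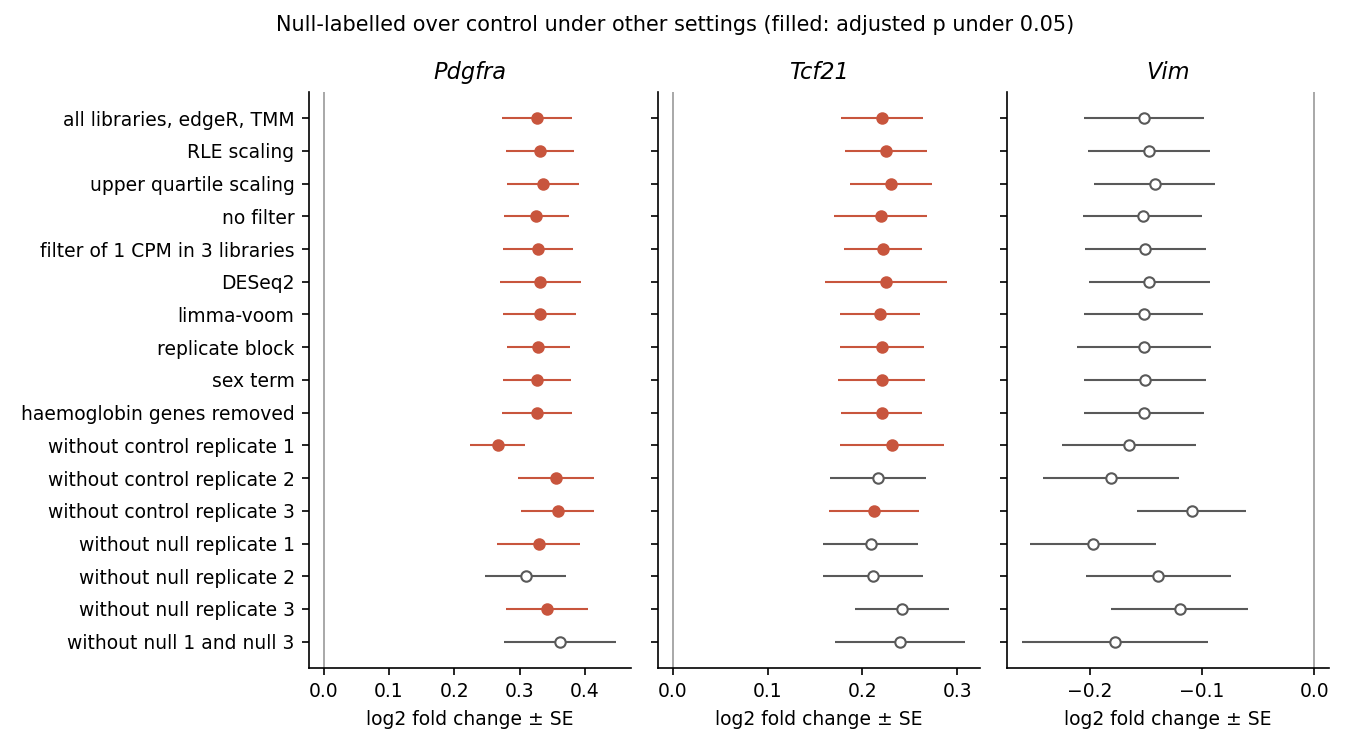
Log2 fold change ± SE of Pdgfra, Tcf21 and Vim with all libraries and under 16 other settings; filled points have an adjusted p under 0.05. Pdgfra was called in 14 and Tcf21 in 11 of the 16, Vim in 0, and none of the 3 genes changed sign.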

How the data were processed

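The authors deposited whole-number counts per Ensembl gene, 1 file per library, not normalised. The build mm10 and the tools HTSeq 0.6.1p1, DESeq2, cutadapt 1.13 and STAR are named per the submitters' processing notes; their roles, the annotation release and the strand setting were not given in the sources used here. Of 25006 identifiers 24991 were matched to GENCODE M21 (GRCm38). In R 4.3.3, genes were filtered with filterByExpr and scaled by TMM (trimmed mean of M values), and groups were compared in edgeR 4.0.16 by its quasi-likelihood F test (robust, two-sided, Benjamini-Hochberg over 14815 genes). SE and 95% intervals were derived from the F statistic. The scripts were tested on simulated counts of 14694 genes. At an adjusted p under 0.05 in edgeR, 32% of genes changed 1.2-fold and 82% of those changed 1.5-fold were recovered, with 13 false calls. Small changes can thus be missed. Alternatives included DESeq2 1.42.0 and limma-voom 3.58.1. The genes, lists and alternatives were chosen with earlier results of these data known. Named by rule were all 8 genes, up to 3 called genes per list and direction, 2 per marker list, and relatives of at least 1 CPM; other genes were named after their values were seen. Alternatives for list counts and list genes were added after seeing the data.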

Additional observations from a re-analysis of the deposited data

How the results depend on the processing

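Pdgfra and Tcf21 were both called under RLE and upper quartile scaling, both other filters, DESeq2, limma-voom, a sex term, without haemoglobin genes and at a threshold of 0.1, and 0 of the 8 genes was called lower under any alternative. With 1 library left out, 0 to 2 of the 8 genes and 1 to 8 of the other fibroblast genes were called higher, against 2 and 4 with all libraries; without null 1 and null 3 the numbers were 0 and 0, with the lone null library assumed to vary like the controls. Other fibroblast genes called higher numbered 9 with DESeq2, 2 with limma-voom, 2 with a sex term and 7 at a threshold of 0.1. Signs turned, always for genes not called with all libraries, in Ddr2 without control 1 (−0.0057) or null 1 (−0.0094), Pdgfa (−0.023) and Thy1 (0.047) without control 3, and Gsn without null 1 and null 3 (−0.0079). Among relatives they turned in Pdgfrb without control 1 (−0.01), null 1 (−0.021) or null 1 and null 3 (−0.017), Msc without control 1 (0.085), null 2 (0.024) or null 3 (0.0021), Des without control 1 (0.0066), Pdgfc (0.026) and Pdgfd (0.0035) without control 3, and Ddr1 without null 2 (−0.0086). Over single libraries left out, log2 fold changes reached 0.062 for Pdgfa, 0.19 for Ddr2, −0.23 for Thy1, 0.088 for Pdgfrb, −0.35 for Pdgfc, −0.20 for Pdgfd, 0.25 for Ddr1, −0.19 for Msc and −0.21 for Des at the other end. The cause was not tested.

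With the replicate number as a block in edgeR, 2 of the 8 genes (Pdgfra, adjusted p = 0.0167, and Tcf21, 0.0453) and 3 other fibroblast genes were called higher. Same-numbered libraries deviated from their group means with r of −0.05, −0.10 and −0.16 across genes, and no pair of the 3 correlated best with its own number. Deviations from a mean of 3 libraries depend on each other, so these values cannot settle whether the numbers mark a pairing. Over all genes 801 were called with all libraries, 570 with the block, 402 without control 2, 385 without null 1, 258 without null 2, 277 without null 3, 52 without null 1 and null 3, and 1430 at a threshold of 0.1.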

Other observations

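Control 3 was the highest control for 5 of the 8 fibroblast identity genes (Pdgfra, Ddr2, Thy1, Vim and Meox1) and the lowest for Pdgfa and Tcf21. For Ddr2, Thy1, Vim and Meox1 it was the highest of all 6 libraries. The coefficient of variation of Thy1 was 21.1% in controls, against 2.63% in null-labelled libraries and a median of 4.39% in controls over tested genes of at least 10 CPM. In the same library the 28 other fibroblast genes summed to 12466 CPM, against 10606 and 10404 CPM in controls 1 and 2 and 12641 to 13960 CPM in null-labelled libraries. Markers of blood and liver summed to 5072 CPM there, against 1738 and 2882 CPM in the other controls. Those of lung and thoracic wall summed to 20.8 CPM, against 5.45 and 13.1 CPM. In control 3 this sum was mostly Acan (15.5 CPM) and Col2a1 (4.53 CPM). The lung genes Sftpc, Sftpb, Nkx2-1 and Scgb1a1 were too low to be tested. Valve and endocardial markers summed to 276 CPM in control 3, against 233 and 234 CPM in controls 1 and 2. Control 3 was also the only female control by its counts of Xist (49485) and Y-linked genes (175). The female null 2 did not stand high for Ddr2, Thy1, Vim or Meox1 (47.8, 12.2, 1263 and 21.9 CPM). The part of the other cells in the fibroblast levels of control 3 was not tested.

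Without control 3, the log2 fold changes were 0.36 for Pdgfra, 0.21 for Tcf21, 0.19 for Ddr2, −0.11 for Vim and −0.09 for Meox1, and Pdgfra and Tcf21 were still called (adjusted p of 0.0111 and 0.0339). Chi-square distances between libraries of a group, per gene, were 10.5 to 26.6 among controls, the pairs with control 3 being the larger, and 8.79 to 11.6 among null-labelled libraries. These distances show only that no pair was 1 library deposited again.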
